A study of Xenopus laevis x Xenopus muelleri with 8 samples.

Results

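The genes described here are the immune receptor and signalling genes measured in the ovary of hybrid frogs. They were picked by name, as probe sets with 1 listed gene symbol that begins like a Toll-like receptor, interleukin, CD antigen, chemokine, interferon regulatory factor, STAT, TNF, TRAF, NF-kB, complement or related immune gene. The rule used no measured value. It found 55 of 11485 probe sets on the array, standing for 54 of 5790 gene symbols, or 49 genes once the homeologs .L and .S were counted together. A further 2 probe sets that list several symbols would have matched and were left out.

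RNA came from the ovary of sexually mature animals with a Xenopus laevis mother (Cape of South Africa) and a Xenopus muelleri father (Swaziland), raised from eggs to adulthood under a 12L:12D photoperiod. One group was 4 normal ovaries and the other 4 ovaries of sex-reversed animals, each titled a biological replicate and each on 1 Affymetrix array of X. laevis probes. The labels do not say by what means sex was reversed, nor whether an array holds 1 animal or several. The source names of all arrays read testis, against ovary in titles and descriptions, and that of sex-reversed replicate 4 reads normal; arrays were grouped by title.

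Toll-like receptors recognise microbial molecules and signal through the adaptor MyD88, IRAK kinases and TRAF proteins to NF-kB, which is held in the cytoplasm by IkB proteins. Cytokine receptors signal through JAK kinases and STAT factors, with SOCS proteins as feedback inhibitors. Beta-2-microglobulin (b2m) is the light chain of MHC class I. The invariant chain CD74 guides MHC class II to its peptides, and so marks cells that present antigen on class II. In vertebrate ovaries such cells, macrophages above all, lie around the follicles and clear degenerating ones, while the oocyte stores maternal transcripts of several signalling intermediates.

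Values are log2 expression per probe set as deposited, with array medians between 6.0 and 6.04. All 12 probe sets of the oocyte marker list lay above the median of every array, and 0 of 5 of the testis and sperm list did. Of 39 leukocyte marker genes, 11 were measured by 12 probe sets, 5 of them members here. The mean of these 12 ran from 3.90 to 4.50 in normal and from 3.91 to 4.33 in sex-reversed ovary, 1 lay above the median on all arrays and 3 lay below the lower quartile on all arrays, among them ptprc.L. The arrays fell into 2 sets of 4 on the probe sets that are not members, normal replicates 1 and 4 with sex-reversed replicates 3 and 4, and normal replicates 2 and 3 with sex-reversed replicates 1 and 2. Over all probe sets, arrays correlated at 0.954 to 0.972 within these sets and at 0.943 to 0.953 between them. What the sets stand for is not given in the labels.

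No immune transcript was called different between sex-reversed and normal ovary, and the flagellin receptor gene tlr5.L had the largest difference of the 55. In limma, 0 members passed an adjusted p of 0.05, as did 0% of all probe sets, and the lowest adjusted p of a member was 0.636. At an unadjusted p of 0.05, 5 members differed, or 9.09%, against 6.38% of all probe sets; 4 were higher in sex-reversed ovary (tlr5.L, cd247.S, il6st.L and cd63.L), against 3.21% of all probe sets, and 1 was lower (cd37.S), against 3.17%. The values of the groups did not overlap in 5 members, or 9.09%, against 4.06% of all probe sets, the same 4 higher genes against 2.1% and 1 b2m.S probe set lower against 1.96%. The means differed 2-fold or more in 1 member, tlr5.L, against 1.89% of all probe sets. Without normal replicate 1 or without normal replicate 3 the count at an unadjusted p of 0.05 was 8, against 5.94% and 6.75% of all probe sets. Without sex-reversed replicate 2 it was 3, against 5.35%. The count without overlap was 9 when normal replicate 1, normal replicate 3 or sex-reversed replicate 4 was left out. A lack of overlap is easier to reach with fewer arrays. The share over all probe sets is not given for these settings, so the rise is not a result about the members. With the array sets as a term in the limma fit, 8 members reached an unadjusted p of 0.05, with cd276.S, c1qtnf4.S and a b2m.S probe set added. The share of all probe sets rose as well, from 6.38% to 7.91%, and the lowest adjusted p of a member was 0.351.

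As a group the members showed no common direction. Of the 55, 25 were higher and 30 lower in sex-reversed ovary, so that 45.5% were higher against 50.7% of all probe sets. Their median log2 difference was -0.01, against 0.00 over all probe sets. The 95% interval of 39 members, or 70.9%, stayed inside a 2-fold change up or down, against 78% of all probe sets. The spread between arrays of a group was also like that of the array as a whole, with a median SD of 0.302 among members and 0.304 overall. Of the 55, 20 lay above the median on all arrays, or 36.4% against 40.5%, and 8 below the lower quartile on all arrays, or 14.5% against 15.1%.

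**Figure D1:**
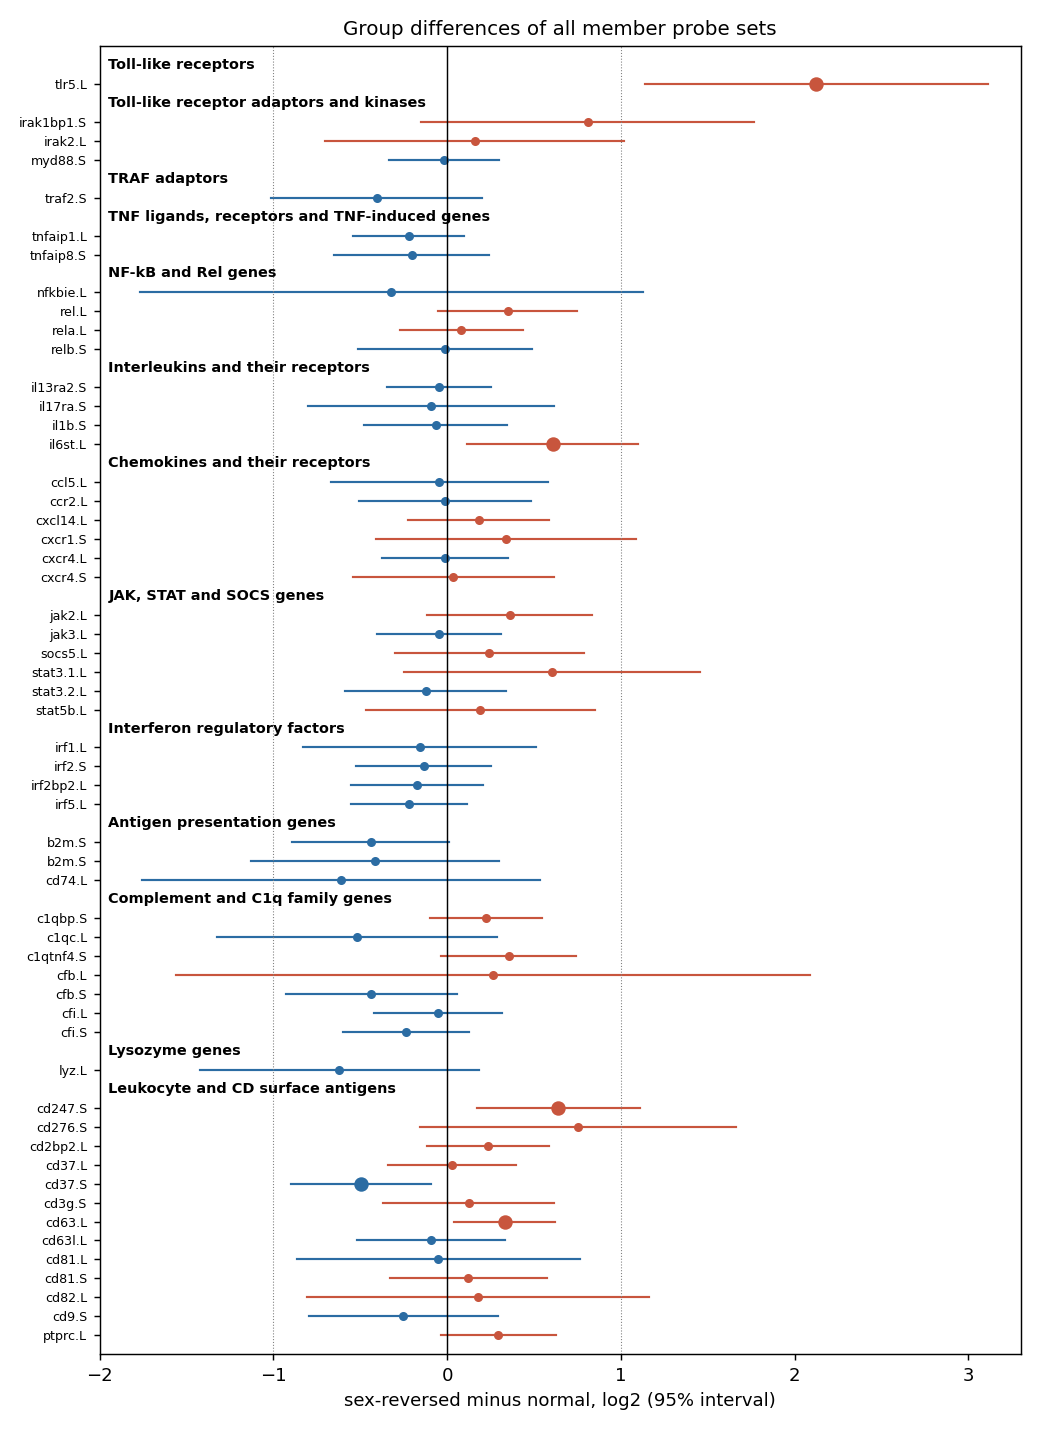
Log2 difference between sex-reversed and normal ovary (x axis) for all 55 member probe sets, ordered by role on the y axis, with 95% intervals from limma as lines. Red is higher and blue lower in sex-reversed ovary, large points mark the 5 members at an unadjusted p under 0.05, and dotted lines mark a 2-fold change; the interval of tlr5.L, from 1.14 to 3.11, is the only one wholly beyond it.

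The Toll-like receptor gene tlr5.L, which encodes the receptor for bacterial flagellin, was the only receptor of its family among the members. Normal replicates 1 to 4 measured 5.12, 5.15, 4.20 and 4.29, and sex-reversed replicates 1 to 4 measured 7.58, 7.49, 6.39 and 5.79. Every sex-reversed array lay above every normal one, with sex-reversed replicates 1 and 2 the highest. The probe set lay above the median on 3 of 8 arrays. In normal replicates 3 and 4 it was close to the lower quartiles of 4.049 and 4.006, and detection above background was not tested. The group means were 4.69 ± 0.51 for normal and 6.81 ± 0.87 for sex-reversed ovary (SD, n = 4 each), a log2 difference of 2.12 ± 0.43 (SE), or 4.36-fold. This did not pass over all probe sets (adjusted p = 0.636 in limma), although it reached an unadjusted p of 0.05 under all 17 other settings. Leaving out 1 array gave differences from 1.87 to 2.47. Within the first array set the difference was 1.38, between 2 normal and 2 sex-reversed arrays, and within the second it was 2.87. No other probe set is annotated with a Toll-like receptor symbol here.

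No member that acts between the Toll-like receptors and NF-kB reached an unadjusted p of 0.05. The adaptor gene myd88.S averaged 5.98 ± 0.15 in the normal arrays and 5.97 ± 0.13 in the sex-reversed arrays (SD, n = 4 each), a difference of -0.02 with a 95% interval from -0.33 to 0.30. The kinase gene irak2.L lay below the lower quartile on 7 of 8 arrays and rested on sex-reversed replicate 4, at 4.51 against 2.64 to 3.40 on the other arrays. Its difference of 0.16 became -0.24 without that array. The gene irak1bp1.S, whose product binds the kinase IRAK1, measured 6.75, 5.22, 7.47 and 6.15 in normal and 6.85, 7.35, 7.30 and 7.32 in sex-reversed ovary. Its difference of 0.81 ± 0.42 (SE) had an adjusted p of 0.806 in limma and was 0.42 without normal replicate 2 and 1.17 without normal replicate 3. The TRAF adaptor gene traf2.S differed by -0.40 ± 0.27 and by -0.17 without normal replicate 3, the array on which it was highest.

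Among NF-kB genes, the RelA subunit gene rela.L averaged 8.50 ± 0.13 in the normal arrays and 8.58 ± 0.23 in the sex-reversed arrays (SD, n = 4 each; difference 0.08, 95% interval -0.27 to 0.44). The c-Rel gene rel.L was dim, below the lower quartile on all 8 arrays, and differed by 0.35 ± 0.18 (SE; adjusted p = 0.799 in limma). The RelB gene relb.S differed by -0.01. The IkB-epsilon gene nfkbie.L, an inhibitor that holds Rel dimers in the cytoplasm, took separate levels that did not follow the groups. It measured 10.70, 8.55, 10.24 and 10.51 in normal and 8.67, 8.70, 10.65 and 10.70 in sex-reversed ovary. The low arrays were normal replicate 2 and sex-reversed replicates 1 and 2, which belong to 1 array set, but normal replicate 3 of that set was high. The 2 TNF-induced members, tnfaip1.L and tnfaip8.S, named for their induction by TNF rather than for a receptor function, were lower by 0.22 and 0.20 and did not pass (adjusted p of 0.833 and 0.890 in limma).

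In the interleukin group 1 of 4 genes had no overlap between groups, against 4.06% of all probe sets. The gene il6st.L encodes gp130, the receptor subunit shared by the interleukin 6 family. It measured 6.23, 6.29, 6.32 and 6.48 in normal and 7.15, 7.44, 6.54 and 6.63 in sex-reversed ovary. The groups did not overlap, but sex-reversed replicates 3 and 4 lay just above the highest normal array. The difference was 0.61 ± 0.22 (log2, SE; adjusted p = 0.733 in limma), 0.22 within the first array set and 0.99 within the second. It was 0.54 without sex-reversed replicate 1 and 0.44 without sex-reversed replicate 2, and reached an unadjusted p of 0.05 in neither case. The groups overlapped when sex-reversed replicate 4 was moved to normal. The other genes of the group differed less, il1b.S, the cytokine interleukin 1 beta, at -0.07 ± 0.18, il17ra.S, a receptor subunit for interleukin 17, at -0.09 ± 0.31, and il13ra2.S, a decoy receptor for interleukin 13, at -0.05 ± 0.13.

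The JAK, STAT and SOCS genes, some of which act below gp130 and others below other cytokine receptors, were higher in 4 of 6 probe sets, with a median difference of 0.22. In limma 0 of the 6 reached an unadjusted p of 0.05. The kinase gene jak2.L measured 6.06, 5.82, 6.27 and 6.10 in normal and 6.82, 6.62, 6.30 and 5.94 in sex-reversed ovary, and its difference of 0.36 ± 0.21 (SE; adjusted p = 0.809 in limma) was 0.04 within the first array set and 0.68 within the second. The array named 2 genes of STAT3, the factor activated through gp130. The gene stat3.1.L measured 6.19, 7.89, 7.96 and 7.41 in normal and 7.77, 7.94, 7.79 and 8.35 in sex-reversed ovary. Its difference of 0.60 ± 0.37 was 0.21 without normal replicate 1, the 1 low array. The gene stat3.2.L differed by -0.12 ± 0.20. The feedback inhibitor gene socs5.L and the STAT gene stat5b.L differed by 0.24 and 0.19, and the lymphoid kinase gene jak3.L, dim on all 8 arrays, by -0.05.

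**Figure D2:**
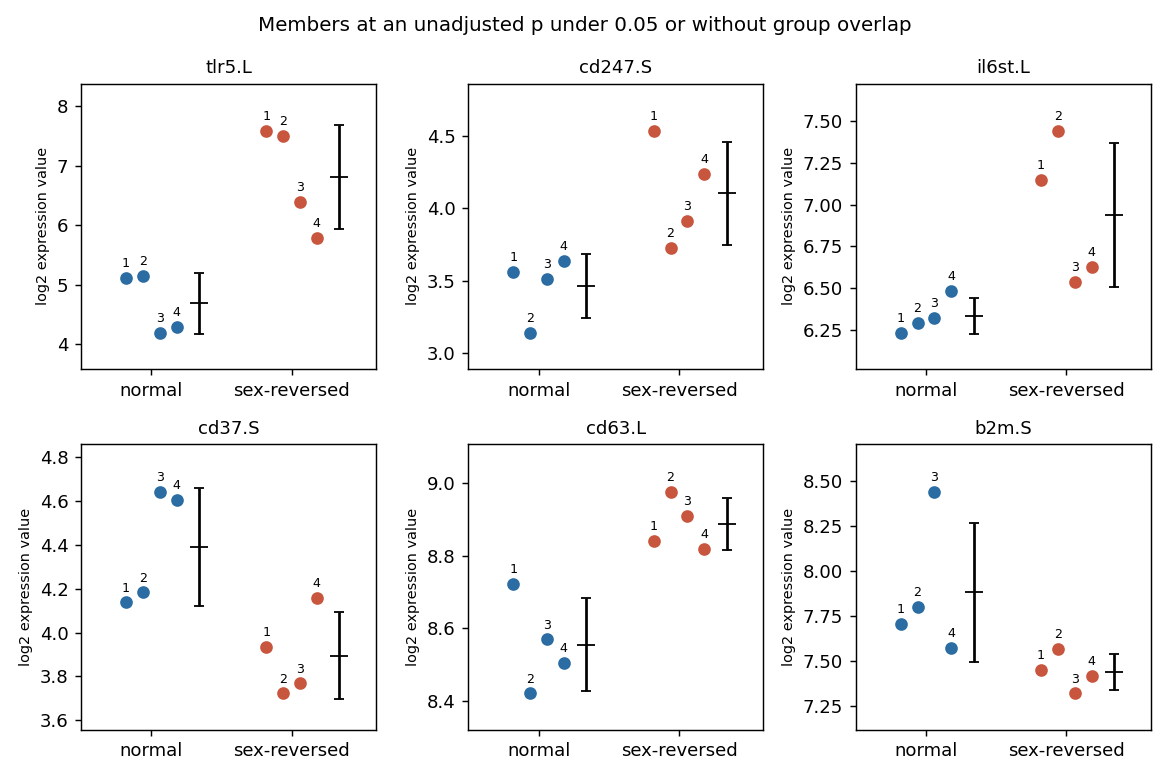
Log2 expression values by group (y axis) of the 6 member probe sets at an unadjusted p under 0.05 in limma or without overlap between groups. Points are arrays, numbered by replicate, and bars show the mean ± SD of 4 arrays. In tlr5.L, cd247.S, il6st.L and cd63.L all sex-reversed arrays lie above the normal ones, in the b2m.S probe set all lie below, and in cd37.S sex-reversed replicate 4 at 4.16 lies just above normal replicate 1 at 4.14.

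Chemokine and chemokine receptor transcripts gave low values and small differences. All 6 probe sets lay below the median on all arrays, and their median difference was 0.01, with 3 higher and 3 lower. The interleukin 8 receptor gene cxcr1.S measured 5.67, 4.54, 4.11 and 4.90 in normal and 5.66, 4.95, 4.94 and 5.02 in sex-reversed ovary, a difference of 0.34 ± 0.33 (SE; adjusted p = 0.890 in limma). Normal replicate 1 and sex-reversed replicate 1 were its highest arrays, so that the difference was 0.63 without the former. The homeologs of cxcr4, the receptor for the chemokine CXCL12, differed by -0.01 for cxcr4.L and 0.04 for cxcr4.S. The chemokine genes cxcl14.L and ccl5.L differed by 0.18 and -0.05, and the receptor gene ccr2.L by -0.01.

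The class of interferon regulatory factors was lower in 4 of 4 probe sets by small amounts, from -0.22 to -0.14, and none reached an unadjusted p of 0.05 in limma. The class was formed by name and counts irf2bp2.L, which is not itself such a factor. The median of -0.17 stood against 0.00 over all probe sets and ran from -0.24 to -0.10 when 1 array was left out. The repressor gene irf2.S averaged 11.38 ± 0.29 in the normal arrays and 11.24 ± 0.10 in the sex-reversed arrays (SD, n = 4 each). The gene irf5.L, which acts below Toll-like receptors in mammals, differed by -0.22 ± 0.15 (SE; adjusted p = 0.843 in limma) and irf2bp2.L, a partner of IRF2, by -0.17 ± 0.17. The interferon-induced factor gene irf1.L, below the lower quartile on 5 of 8 arrays, differed by -0.16 ± 0.30.

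Antigen presentation transcripts among the members were lower in sex-reversed ovary in 3 of 3 probe sets, by amounts that were smaller without 1 normal array. The class I light chain gene b2m.S measured 7.71, 7.80, 8.44 and 7.58 in normal and 7.45, 7.57, 7.32 and 7.42 in sex-reversed ovary on its first probe set. The groups did not overlap there, although normal replicate 4 and sex-reversed replicate 2 were nearly equal, and the difference was -0.44 ± 0.20 (SE; adjusted p = 0.787 in limma). The other b2m.S probe set measured 7.50, 7.95, 8.85 and 7.35 in normal and 7.79, 7.52, 7.24 and 7.44 in sex-reversed ovary, with overlap between the groups and a difference of -0.42 ± 0.31. The invariant chain gene cd74.L measured 6.84, 6.74, 8.90 and 6.99 in normal and 6.73, 7.53, 6.10 and 6.66 in sex-reversed ovary, a difference of -0.61 ± 0.50. Normal replicate 3 was the highest array in all 3. Without it the differences were -0.25 and -0.11 for b2m.S and -0.10 for cd74.L, and the median of the 3 moved from -0.44 to -0.11. The first b2m.S probe set had no overlap there either, as it must, since leaving out an array cannot create overlap. Within the first array set, which does not hold normal replicate 3, the differences were -0.27 and -0.09 for b2m.S and -0.53 for cd74.L. The MHC class II gene hla-dqa2.L is not a member and was looked at after its values were seen. It differed by -0.17 ± 0.19 (SE) on one probe set and by -0.04 ± 0.15 on another. Both lay below the lower quartile on all 8 arrays. In bulk tissue, fewer cells of a type and less RNA per cell cannot be told apart.

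Normal replicate 3 was the highest array in 15 of 55 members, or 27.3%, against 15% of all probe sets. These 15 were both b2m.S probe sets, cd74.L, c1qc.L, cfb.S, cd9.S, cd37.S, cd81.L, myd88.S, traf2.S, irak1bp1.S, stat3.2.L, stat5b.L, irf1.L and ccr2.L. The largest gap to the other arrays was that of cd74.L, at 8.90 against at most 7.53. The complement component gene c1qc.L, made in mammals by macrophages, stood at 7.64 there and between 5.55 and 6.60 on the others. The mean of the 12 leukocyte marker probe sets was highest in normal replicate 3, at 4.50 against 3.90 to 4.33 on the other arrays. The list holds 5 of the members, cd74.L among them, so this mean is not separate from their values. It was not recomputed without them. Singly, the markers went both ways. Normal replicate 3 was the highest array for mpo.S, at 7.38, and for cd74.L, and the second highest for lyz.L, lcp1.S, lcp2.L and cd3g.S. The homeolog mpo.L was at 3.398 there, against 4.617 in normal replicate 1 and 4.35 in sex-reversed replicate 2. The values of cybb.L, plek.L and cd247.S in normal replicate 3 lay below those of most other arrays, and that of itgb2.L lay mid-range. The common leukocyte antigen gene ptprc.L, dim on all 8 arrays, was at 2.68 there and between 2.70 and 3.24 on the others. Sex-reversed replicate 3 was the lowest array in 10 of 55 members, against 10.4% of all probe sets, among them all 3 antigen presentation probe sets, c1qc.L and lyz.L. It did not stand alone in this. Sex-reversed replicate 2 was the lowest in 11 of 55, against 12.5%, and normal replicate 1 in 10, against 14.5%. By group, the leukocyte markers went both ways, with 7 of 12 probe sets higher in sex-reversed ovary and a median difference of 0.08. The higher ones included ptprc.L, itgb2.L and plek.L, which lay below the lower quartile on all 8 arrays, and the largest difference among them was 0.64, for cd247.S. The lower ones were mpo.S at -0.70, lyz.L at -0.62, cd74.L at -0.61, lcp1.S at -0.45 and mpo.L at -0.05. Stroma markers were lower in most cases. Of 14 stroma probe sets, which stand for 9 gene symbols, 12 were lower in sex-reversed ovary. In limma 6 reached an unadjusted p of 0.05, or 42.9% against 6.38% of all probe sets, 5 of them lower and 1 higher. That share was the highest of all marker lists looked at. It was 33.3% for endothelium (6 probe sets), 25% for fat body (8), 16.7% for leukocytes and 11.1% for granulosa and follicle wall. For erythrocytes it was 6.25%, for liver 5.88%, and for oocytes and for testis and sperm 0%. In limma none of the stroma probe sets passed an adjusted p of 0.05, the lowest being 0.733. None passed in the other marker lists either, where the lowest was 0.582, in granulosa and follicle wall. The intermediate filament gene vim.S differed by -0.84, the matrix gene sparc.S by -0.58 and the collagen gene col6a1.L by -0.76. The genes col1a1.S and lum.L differed by -0.98 and -0.62. The value of lum.L was 6.06 in normal replicate 3 and between 3.585 and 4.58 on the other arrays. That array was also the highest for vim.S, sparc.S and col6a1.L, and differences of stroma genes without it are not given. Other stroma probe sets did not share the size or direction of these differences. The receptor gene pdgfra.L stood at 0.70 on one probe set and -0.12 on another, and the homeolog sparc.L at 0.03. The gene col3a1.S stood at -1.44 and -0.08, and the probe sets of fn1.S lay between -0.18 and -0.03. The mean of the 14 ran from 6.50 to 7.12 in normal and from 6.18 to 6.60 in sex-reversed ovary, 6 were highest in normal replicate 3 and 7 lowest in sex-reversed replicate 3, and 6 of the 14 lay above the median on all arrays. The part of any of these cell types in the antigen presentation values was not tested.

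**Figure D3:**
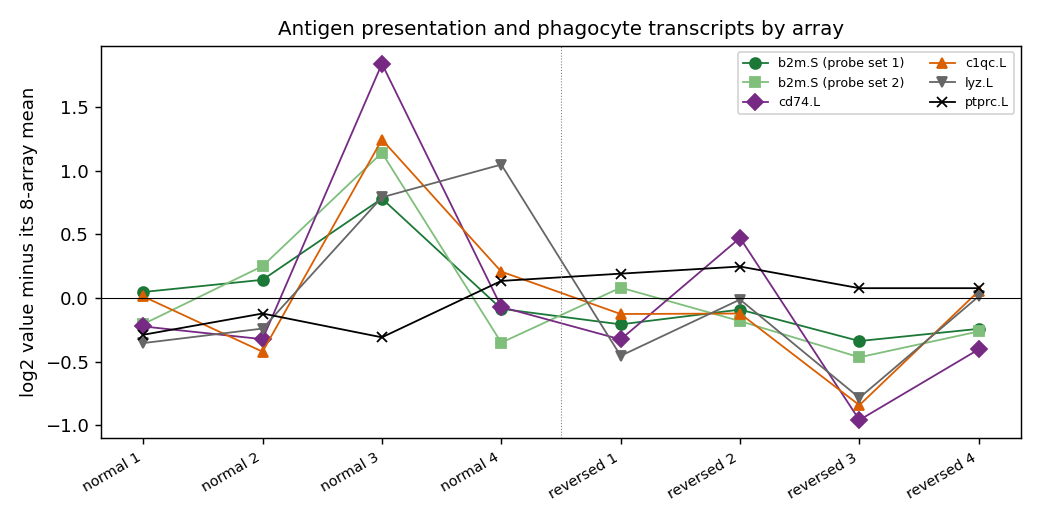
Log2 value minus its mean over the 8 arrays (y axis) for 6 member probe sets in each array (x axis; normal replicates left of the dotted line, sex-reversed replicates right of it). Normal replicate 3 stands highest in both b2m.S probe sets, cd74.L and c1qc.L, normal replicate 4 in lyz.L, and sex-reversed replicate 3 lowest in all of these, while ptprc.L moves little.

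Complement and C1q family transcripts split by gene, with 3 of 7 higher and a median difference of -0.05. The C1q chain gene c1qc.L measured 6.41, 5.97, 7.64 and 6.60 in normal and 6.27, 6.27, 5.55 and 6.45 in sex-reversed ovary (difference -0.52 ± 0.35, SE; adjusted p = 0.843 in limma), and the difference was -0.19 without normal replicate 3. The factor B gene of the alternative pathway gave separate pictures from its homeologs. The homeolog cfb.S was lower by 0.44 ± 0.22 (SE; adjusted p = 0.794 in limma), at 4.41, 4.10, 4.44 and 3.78 in normal and 3.48, 4.14, 3.87 and 3.50 in sex-reversed ovary. The homeolog cfb.L was at 5.60 in normal replicate 4 and 6.36 in sex-reversed replicate 3, and between 3.07 and 3.61 on the other 6 arrays. Both high arrays belong to the first array set, 1 of each group, and the difference of 0.27 turned to -0.49 without sex-reversed replicate 3. The factor I genes cfi.L and cfi.S, encoding an inhibitor of complement, lay below the lower quartile on all arrays.

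Among these are genes that carry the C1q name but are known for other roles. The gene c1qbp.S, whose product is mainly a mitochondrial matrix protein, averaged 9.89 ± 0.14 in the normal arrays and 10.11 ± 0.15 in the sex-reversed arrays (SD, n = 4 each), a difference of 0.22 ± 0.14 (SE; adjusted p = 0.831 in limma). The gene c1qtnf4.S, for a secreted protein of the C1q and TNF related family, measured 6.52, 6.60, 6.83 and 6.24 in normal and 6.95, 7.07, 6.63 and 6.95 in sex-reversed ovary. Its difference of 0.35 ± 0.17 had an adjusted p of 0.788 in limma. The lysozyme gene lyz.L, for the enzyme that cleaves bacterial cell walls, measured 3.71, 3.82, 4.85 and 5.11 in normal and 3.61, 4.05, 3.28 and 4.07 in sex-reversed ovary (difference -0.62 ± 0.35; adjusted p = 0.806 in limma), with normal replicates 3 and 4 high.

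The leukocyte and CD surface antigens held 3 of the 5 members at an unadjusted p of 0.05, or 23.1% of the 13 against 6.38% of all probe sets. Of the 13, 9 were higher, or 69.2% against 50.7%, and the median difference was 0.12. The gene cd247.S encodes the zeta chain that carries the signal of the T cell receptor. It measured 3.56, 3.14, 3.52 and 3.64 in normal and 4.53, 3.73, 3.91 and 4.24 in sex-reversed ovary, with no overlap, and 6 of its 8 values lay below the lower quartile of their array. The difference was 0.64 ± 0.21 (SE; adjusted p = 0.727 in limma), 0.48 within the first array set and 0.80 within the second. The T cell receptor partner gene cd3g.S, also low, differed by 0.12 ± 0.22, and ptprc.L, below the lower quartile on all 8 arrays, by 0.29 ± 0.15 (adjusted p = 0.792 in limma). Detection above background was not tested, so these low values may hold little signal.

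Tetraspanins, membrane organisers found on many cell types besides leukocytes, made up 8 of these probe sets and differed in direction. The late endosome tetraspanin gene cd63.L measured 8.72, 8.42, 8.57 and 8.51 in normal and 8.84, 8.98, 8.91 and 8.82 in sex-reversed ovary. Its groups did not overlap, with a difference of 0.33 ± 0.13 (SE; adjusted p = 0.759 in limma), 0.25 and 0.41 within the array sets. Its relative cd63l.L differed by -0.09 ± 0.19. The leukocyte tetraspanin gene cd37.S measured 4.14, 4.18, 4.64 and 4.60 in normal and 3.93, 3.72, 3.77 and 4.16 in sex-reversed ovary, a difference of -0.50 ± 0.18 (adjusted p = 0.733 in limma), with sex-reversed replicate 4 just above normal replicate 1. Its homeolog cd37.L, below the lower quartile on all arrays, differed by 0.03 ± 0.16. The genes cd9.S, cd82.L, cd81.L and cd81.S, of which CD9 and CD81 act in sperm and egg fusion in mammals, differed by -0.25, 0.18, -0.05 and 0.12. The value of cd9.S was -0.10 without normal replicate 3 and -0.49 without normal replicate 1.

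The immune checkpoint gene cd276.S, of the B7 family, also took separate levels. It measured 6.96, 8.46, 8.70 and 7.08 in normal and 8.73, 8.39, 8.35 and 8.72 in sex-reversed ovary, so that only normal replicates 1 and 4 were low. The difference was 0.75 ± 0.40 (SE; adjusted p = 0.806 in limma), 1.52 within the first array set and -0.01 within the second. The gene cd2bp2.L, named for binding the T cell antigen CD2 but known as a protein of the spliceosome, differed by 0.23 ± 0.15. No member had a gap of 2 or more log2 units between neighbouring arrays, against 2.46% of all probe sets, and cfb.L came closest at 1.99, followed by nfkbie.L at 1.54.

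**Figure D4:**
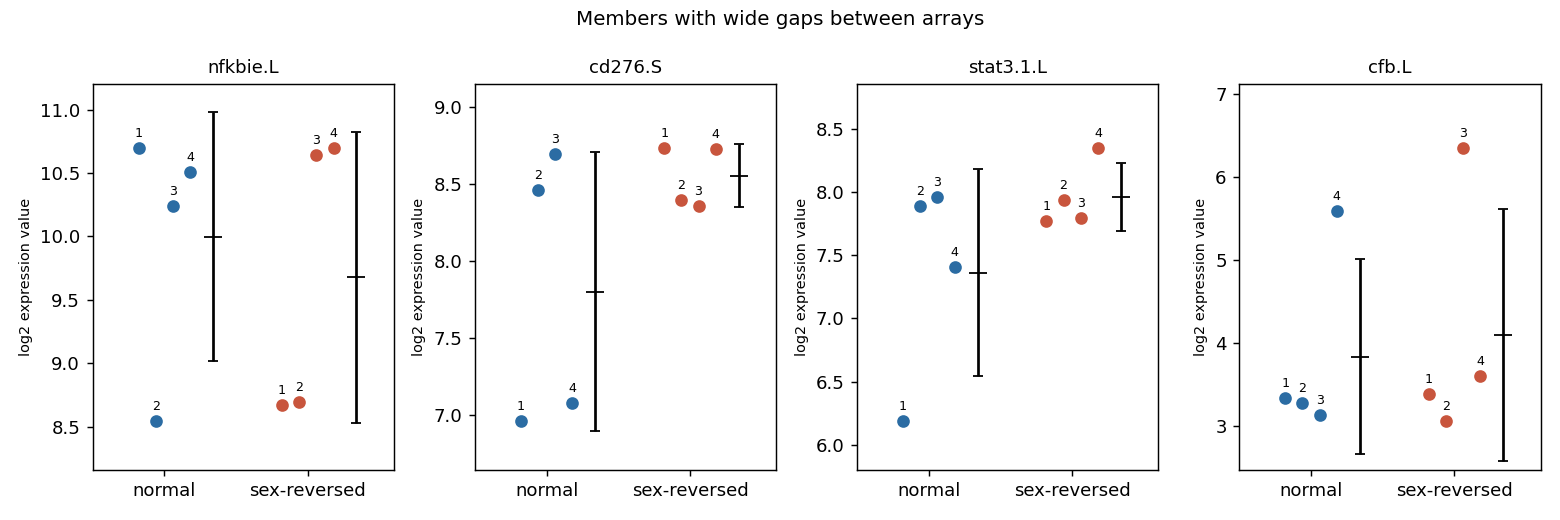
Log2 expression values by group (y axis) of 4 members with wide gaps between arrays. Points are arrays, numbered by replicate, and bars show the mean ± SD of 4 arrays; nfkbie.L is low in normal replicate 2 and sex-reversed replicates 1 and 2, cd276.S in normal replicates 1 and 4, stat3.1.L in normal replicate 1, and cfb.L is high in normal replicate 4 and sex-reversed replicate 3.

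Other genes of the same pathways, taken from lists by function, gave a similar picture. Of 63 probe sets, 4 reached an unadjusted p of 0.05 in limma, or 6.35% against 6.38% of all probe sets, 2 higher and 2 lower, and 0 passed an adjusted p of 0.05, with a median difference of 0.01. Genes of innate sensing and NF-kB had 10 of 14 higher with 0 at an unadjusted p of 0.05. The smallest p-values in limma were those of 1 of the probe sets of map3k7.S, the kinase TAK1, at 0.28 ± 0.21 (SE) and of ikbkg.L, a subunit of the IkB kinase, at 0.15 ± 0.18. The other map3k7.S probe set differed by 0.06 ± 0.18 and the homeolog map3k7.L by 0.01 ± 0.12. Genes of cytokine and interferon signalling had 6 of 13 higher, with pias1.L, a SUMO ligase, at 0.38 ± 0.15 and -0.54 ± 0.43 on its 2 probe sets and the cytokine receptor gene csf2rb.S at 0.62 ± 0.28. Genes of antigen receptor signalling had 9 of 15 higher. The kinase gene fyn.L, at -0.86 ± 0.17, was the 1 that reached an unadjusted p of 0.05, with its homeolog fyn.S at 0.02 ± 0.15, and vav2.S followed at -0.68 ± 0.32.

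Genes of antigen processing were lower in 9 of 12 probe sets, with a median difference of -0.24. The lysosomal protease gene lgmn.L measured 5.92, 5.91, 6.46 and 6.21 in normal and 5.46, 5.56, 5.08 and 5.93 in sex-reversed ovary, a difference of -0.62 ± 0.21 (SE; adjusted p = 0.733 in limma). The chaperone gene calr.L, calreticulin, went the other way at 0.53 ± 0.16 without overlap (adjusted p = 0.687 in limma), while its homeolog calr.S differed by -0.18 ± 0.23. Other complement genes were even, with 5 of 10 higher, among them itgb2.L, the leukocyte integrin beta chain, at 0.30 ± 0.13 and the intelectin gene itln1.L at -0.40 ± 0.30.

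Single arrays weighed on most of these values. Leaving out 1 array moved the difference of 45 of 55 members by more than 1.5 times, a change of sign included, and changed the sign of 21. Some of these had differences close to no change, such as myd88.S at -0.02 and ccr2.L at -0.01. The share over all probe sets is not given for these counts, so they are not a result about the members. Among the 5 members at an unadjusted p of 0.05, tlr5.L kept it under all 17 other settings, cd247.S under 15 of the 16 in which it was tested, il6st.L under 15 of 17, cd37.S under 13 of 17 and cd63.L under 11 of 17. The lowest adjusted p of any member under any setting was 0.351, that of tlr5.L with the array sets as a term.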

How the data were processed

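RNA of 8 hybrid ovaries was measured on Affymetrix arrays of Xenopus laevis probes. The authors deposited log2 expression values made with RMA, per the submitters' processing notes; the notes name no version, and base 2 was inferred from RMA and from the values' range. RMA gives arrays a common distribution and hides a shift shared by most transcripts. A muelleri allele that differs from a probe can lower a value without less transcript. Scanner files were not used here. Symbols are those of the platform's annotation table and may be outdated; of 11485 probe sets, 6798 had 1 symbol, 110 several and 4577 none listed. Levels of different probe sets are not on a common scale. A level was used to choose genes to name and to place probe sets against the quartiles of each array. It also served the filter on low values, the choice of 1 probe set per gene and the means over marker lists.

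All probe sets were fitted together in limma 3.58.1 under R 4.3.3 (lmFit and eBayes, two-sided, no covariate, no filter), with Benjamini-Hochberg adjustment over all of them; the code was tested on simulated data. Kinship of the animals is not stated, so a p-value covers the spread among these arrays alone, and their number limits the precision. Members, roles, lists and tests were chosen with earlier results of these data known. The rule for named genes took members at an unadjusted p under 0.05, without overlap or with a gap of 2 between arrays, the 2 of smallest p in each role with 3 or more probe sets, the 10 of highest mean, a fixed set (ptprc, b2m, cd74, MHC genes, myd88 and tlr5) and homeologs, 32 probe sets in all. Other members are named to account for all 55, after their values were seen. The same holds for single leukocyte and stroma markers outside the members, mpo.S among them. It also holds for calr.S, fyn.S and further probe sets or homeologs of pias1.L and map3k7.S. The array sets came from hierarchical clustering (average linkage) of array correlations. Alternatives were a replicate block, robust trended variance, quantile or median scaling, a filter at the lower quartile, array weights, 1 probe set per gene, sex-reversed replicate 4 moved to normal, the array sets as a term, and each array left out.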

Additional observations from a re-analysis of the deposited data

Results flagged for a closer look

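In each group of 4 arrays, an array was picked out when its gap to the nearest other array took up more of the group's range than Dixon's 95% critical value allows. Over 110 groups of member values this picked out 10, or 9.09%, where chance flags about 1 in 20 if values spread normally. The share over all probe sets is not given for this rule, so the 9.09% is not a result about the members. Normal replicate 3 was high for cd74.L, at 8.90 against 6.74 to 6.99, and for traf2.S, at 7.03 against 6.004 to 6.166. The factor B gene cfb.L was high once in each group, at 5.60 in normal replicate 4 against 3.14 to 3.34 and at 6.36 in sex-reversed replicate 3 against 3.07 to 3.61. Sex-reversed replicate 1 was high for cxcr1.S, at 5.66 against 4.94 to 5.02, and low for irak1bp1.S, at 6.85 against 7.30 to 7.35. Normal replicate 1 was high for cxcl14.L, at 3.48 against 3.22 to 3.25, and low for cd2bp2.L, at 8.95 against 9.22 to 9.25. Sex-reversed replicate 4 was high for ccl5.L, at 4.07 against 3.09 to 3.23, and sex-reversed replicate 3 for irf2bp2.L, at 8.74 against 8.45 to 8.50.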

How the results depend on the processing

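No member passed an adjusted p of 0.05 in limma under any of the 17 other settings. The replicate number as a block left 4 members at an unadjusted p of 0.05 against 5, and 5.77% of all probe sets against 6.38%. Same-numbered arrays correlated at -0.195, 0.241, -0.193 and 0.174 in their deviations from the group means. Differently numbered arrays ran from -0.257 to 0.276, so the same-numbered ones did not stand out. The 2 positive values fell within an array set and the 2 negative ones between the sets. Whether the numbers pair the arrays can therefore not be told from these values. With the array sets as a term the count was 8, and for other pathway genes 7 against 4, while the share of all probe sets was 7.91%. With 1 array left out, the count at an unadjusted p of 0.05 ran from 3 to 8, while 5.11% to 6.93% of all probe sets reached it. The count without overlap ran from 6 to 9, a lack of overlap being easier to reach with fewer arrays. The median difference of the members ran from -0.041 to 0.028. Medians by role ran then from -0.047 to 0.12 for chemokines, from -0.20 to 0.045 for complement, from -0.067 to 0.074 for interleukins and from 0.038 to 0.24 for surface antigens. With the filter on low values, which tests fewer probe sets, the medians were 0.40 for adaptors, -0.12 for NF-kB genes and 0.22 for complement. With sex-reversed replicate 4 moved to normal, they were 0.086 for chemokines and 0.11 for complement, and irak2.L was -0.52, myd88.S 0.010, rela.L -0.050, relb.S 0.17, ccr2.L 0.16, cfi.L 0.11 and cd63l.L 0.11. Array weights gave 0.0085 for myd88.S, 0.0275 for relb.S and 0.033 for ccr2.L, and quantile normalization 0.00047 for ccr2.L. The signs of 21 members changed when 1 array was left out. These ran from -0.24 to 0.38 (irak2.L), -0.071 to 0.054 (myd88.S), -0.80 to 0.015 (nfkbie.L), -0.17 to 0.13 (relb.S), -0.33 to 0.16 (il17ra.S), -0.20 to 0.021 (il1b.S), -0.28 to 0.12 (ccl5.L), -0.12 to 0.14 (ccr2.L), -0.12 to 0.082 (cxcr4.L), -0.23 to 0.17 (cxcr4.S), -0.15 to 0.043 (jak3.L), -0.0031 to 0.37 (socs5.L), -0.0068 to 0.45 (stat5b.L), -0.33 to 0.084 (irf1.L), -0.49 to 0.85 (cfb.L), -0.135 to 0.045 (cfi.L), -0.033 to 0.12 (cd37.L), -0.023 to 0.26 (cd3g.S), -0.20 to 0.025 (cd63l.L), -0.28 to 0.31 (cd81.L) and -0.092 to 0.44 (cd82.L). Apart from the array left out, the cause of these shifts was not tested. The share of all probe sets that changed sign is not given, so the 21 is not a result about the members.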

Other observations

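Among the other antigen processing genes, 3 that took wide ranges without separating the groups are described here. The low arrays of psmb8.L lay in both groups, and those of psme2.L and rfx5.L in sex-reversed ovary alone. These 3 genes were chosen after their values were seen and are not all that ranged widely. A canx.L probe set, also looked at afterwards, was at 7.90 in sex-reversed replicate 4 and between 9.41 and 10.21 on the other arrays. Another canx.L probe set ran from 9.77 to 10.08. The immunoproteasome gene psmb8.L measured 7.68, 7.62, 3.75 and 4.55 in normal and 4.38, 3.27, 4.30 and 6.74 in sex-reversed ovary, so that normal replicates 1 and 2 and sex-reversed replicate 4 were high. The proteasome activator gene psme2.L measured 5.76, 5.24, 5.43 and 6.10 in normal and 3.44, 5.999, 3.92 and 5.83 in sex-reversed ovary, with sex-reversed replicates 1 and 3 low. The gene rfx5.L, a transcription factor of MHC class II genes in mammals, measured 7.92, 6.99, 7.27 and 7.79 in normal and 5.23, 5.32, 7.87 and 7.83 in sex-reversed ovary, with sex-reversed replicates 1 and 2 low, the same 2 sex-reversed arrays that were low for nfkbie.L. The differences were -1.23 ± 1.05 (SE), -0.84 ± 0.57 and -0.93 ± 0.65, none at an unadjusted p of 0.05 in limma.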
